A study of Mus musculus with 24 samples.

Results

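The CCAAT/enhancer-binding protein (C/EBP) genes, Cebpa, Cebpb, Cebpd and Cebpg, and Spi1, which encodes PU.1, were followed in mouse bone marrow-derived macrophages (BMDMs). The members were chosen by symbol, and all 5 were found among the 24273 genes of the table, each in 1 row. All 5 passed the filter on low values, with which 13901 genes were tested. BMDMs are obtained by culturing bone marrow cells, here of C57BL/6 mice, until they become macrophages. Every group carried LysM-Cre, a Cre recombinase gene placed in the lysozyme locus Lyz2 that is active in myeloid cells. The control group was labelled LysM-Cre, and the group labelled FosKO also carried floxed Fos alleles (Fos fl/fl). The study's text gives the controls a floxed Fos allele as well, which the labels do not. Cells were left untreated (0 h) or received 100 ng/ml lipopolysaccharide (LPS, a bacterial ligand of the receptor TLR4) during 0.5, 1 or 2 h. The 8 groups held 3 libraries apiece, described in the study's methods as biological replicates, which gave 24 libraries.

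C/EBP proteins are basic leucine zipper (bZIP) transcription factors that bind DNA as pairs, with each other or with other bZIP proteins. C/EBPα drives myeloid differentiation and restrains cell division, C/EBPβ and C/EBPδ are known as inducible activators of inflammatory genes in macrophages, and C/EBPγ lacks an activation domain of the usual kind and pairs with the others. PU.1 is an ETS family factor that is required for macrophages and that marks their enhancers, where C/EBP and AP-1 proteins also bind. FOS is a bZIP protein too, and forms AP-1 with JUN proteins.

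The deposited values were log2 values, so a difference of 1 is a 2-fold change. They were not corrected for gene length, and they carry no read depth, so all errors below come from the spread of the replicates. The study's methods give a typical sequencing yield, but the depth of each single library is unknown. The correlation across genes of libraries in a group was between 0.995 and 0.998 (the genes are not independent replicates), and no pair was identical. Differences were tested with limma in a fit of all 24 libraries. P-values were adjusted over the 13901 tested genes, and an adjusted p under 0.05 made a call.

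Some checks bear on every comparison below. Fos itself was 1.49 higher in libraries labelled FosKO than in those labelled LysM-Cre at 0 h, lower (-0.77) at 0.5 h, 1.64 higher at 1 h and 3.29 higher at 2 h. This is a value for the whole gene, which does not show whether the floxed part was deleted, so each direction between genotypes rests on the labels. Ifnb1, which encodes interferon-β, differed between genotypes by 0.10 at 0 h (adjusted p = 0.6089) and was 1.69, 3.18 and 3.00 higher in FosKO libraries at 0.5, 1 and 2 h, while the differences of Il10 at these times were -0.75, -1.36 and -1.70. In libraries labelled FosKO the LPS response of Fos was 0.15 at 0.5 h (adjusted p = 0.3956), whereas in LysM-Cre it was 2.41. Lyz2, the locus that holds Cre, was 5.17 higher in libraries labelled FosKO at 0 h, and whether this difference in the Cre locus plays a part in any result below was not tested. All 7 macrophage markers (among them Adgre1, Csf1r and Mertk) were tested, and their summed linear value lay between 218860.7 and 230977.1 in LysM-Cre and between 241359.7 and 273412.3 in FosKO libraries. Single markers went both ways. At 0 h 4 of them were called higher and 3 lower in FosKO libraries, and at 0.5 h 4 and 1. The counts were 4 and 2 at 1 h, and 4 and 0 at 2 h. Of 8 neutrophil markers, 4 (S100a8, S100a9, Ltf and Ngp) were tested. These 4 were called lower in FosKO libraries at 0, 1 and 2 h, and 3 of them at 0.5 h. The summed level of the 7 in the table lay between 79.6 and 171.9 in LysM-Cre and between 54.7 and 88.5 in FosKO libraries, while the defining markers Ly6g and Elane lay between -2.22, the lowest value of the table, and -2.20. The genotype differences given below go alongside these differences, and their part in the result was not tested. In bulk RNA, fewer cells of a type and less RNA per cell cannot be told apart. The 18S ribosomal RNA gene Rn18s-rs5 separated 5 libraries (16.65 to 17.0) from the other 19 (18.57 to 19.39). At 0.5 h these were replicate 3 of LysM-Cre with replicate 1 of FosKO, at 1 h replicates 2 and 3 of LysM-Cre with replicate 1 of FosKO, so comparisons of 0 h with 2 h lay wholly within the high set. The high set holds 1 LysM-Cre library at 1 h, and every value below from high-18S libraries in that group rests on it.

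The members lie on 3 chromosomes of the GRCm38 build (GENCODE annotation). Cebpg (chr7:35046422-35056573, minus strand) and Cebpa (chr7:35119293-35121928, plus strand) are neighbours, 62719 bases apart. Cebpb (chr2:167688915-167690418) and Spi1 (chr2:91082390-91115756) share chromosome 2, and Cebpd lies at chr16:15887286-15891031, all on the plus strand. Promoter sequences were taken from RefSeq (build GRCm38.p6), which matched 3 of the 5 members, Cebpa, Cebpb and Cebpg. They are shown because these 3 genes took different courses after LPS. Each runs 5′ to 3′ up to the base before the gene start, on the gene's own strand. The stretches are chr7:35119043-35119292 for Cebpa, chr2:167688665-167688914 for Cebpb and chr7:35056574-35056816 for Cebpg. Capitals mark matches to the motifs searched.
Cebpa: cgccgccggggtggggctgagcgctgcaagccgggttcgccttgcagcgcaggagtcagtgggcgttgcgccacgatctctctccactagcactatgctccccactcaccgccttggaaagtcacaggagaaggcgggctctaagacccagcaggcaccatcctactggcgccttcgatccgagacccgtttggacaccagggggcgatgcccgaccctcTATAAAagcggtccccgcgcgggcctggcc
Cebpb: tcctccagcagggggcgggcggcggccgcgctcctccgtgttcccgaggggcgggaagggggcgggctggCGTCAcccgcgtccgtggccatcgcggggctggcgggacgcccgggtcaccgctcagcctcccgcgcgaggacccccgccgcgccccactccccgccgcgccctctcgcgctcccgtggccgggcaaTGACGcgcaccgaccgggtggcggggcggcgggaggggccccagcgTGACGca
Cebpg: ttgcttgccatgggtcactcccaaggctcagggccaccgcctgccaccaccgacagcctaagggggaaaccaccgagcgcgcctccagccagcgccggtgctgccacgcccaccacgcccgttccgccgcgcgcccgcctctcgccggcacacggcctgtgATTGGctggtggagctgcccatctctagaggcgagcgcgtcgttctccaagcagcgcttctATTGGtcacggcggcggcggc

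The capitals in Cebpa are a TATA box (TATAAA), which starts 30 bases before the gene and occurs in 12.4% of the 32851 promoters of the table over the same 250 bases. The 3 in Cebpb are the partial site TGACG of the cyclic AMP response element (CRE), in either orientation, which 17.8% of promoters hold. The pair in Cebpg are CCAAT boxes on the opposite strand (33.8% of promoters). Both strands were also searched for the full CRE TGACGTCA, which contains the partial site (1.5%), the AP-1 site TGANTCA (6.7%), the C/EBP site TTGCNNAA (9.6%), the PU.1 core GAGGAA (23.3%) and an NF-kB site made of GGGA, any 2 bases and TTCC (1.2%). None of these letters was found in the 3 windows, which says nothing about binding of a factor there or elsewhere. The Cebpb stretch was rich in G and C (81.6%, above that of 99.3% of promoters), that of Cebpa reached 66.4% and that of Cebpg 70.4%, against a median of 52.4%.

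Levels were first compared between the members per length, as the log2 value minus the log2 of the exon length in kilobases. Spi1 was the most abundant of the 5 in every group, at 11.24 per kilobase in untreated LysM-Cre libraries, and 2.94% of tested genes stood higher. Untreated LysM-Cre libraries then held Cebpa (8.77), Cebpg (7.63), Cebpb (7.39) and Cebpd (5.76), and the ranges of neighbours in this order did not overlap. In untreated libraries labelled FosKO, Cebpb (7.79) stood above Cebpg (7.69). By 2 h of LPS in LysM-Cre, Cebpb (7.55) and Cebpa (7.55) overlapped, and Cebpd had reached 6.96. By 2 h in libraries labelled FosKO, Cebpa was the lowest of the 5 (6.82), below Cebpd (7.24), whose range overlapped that of Cebpb (7.29). The place of Cebpg is uncertain, because its annotated coding transcripts are 914 and 4709 bases long, and counting on the short form would raise its level by 2.62. Spi1 stayed first under the longest coding transcript of each gene.

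LPS lowered Cebpa and raised Cebpd and Spi1 in both genotypes by 2 h, while Cebpb was highest at 1 h and by 2 h overlapped its untreated values in LysM-Cre and lay below them in FosKO. The plot of all 24 libraries shows these courses.

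**Figure D1:**
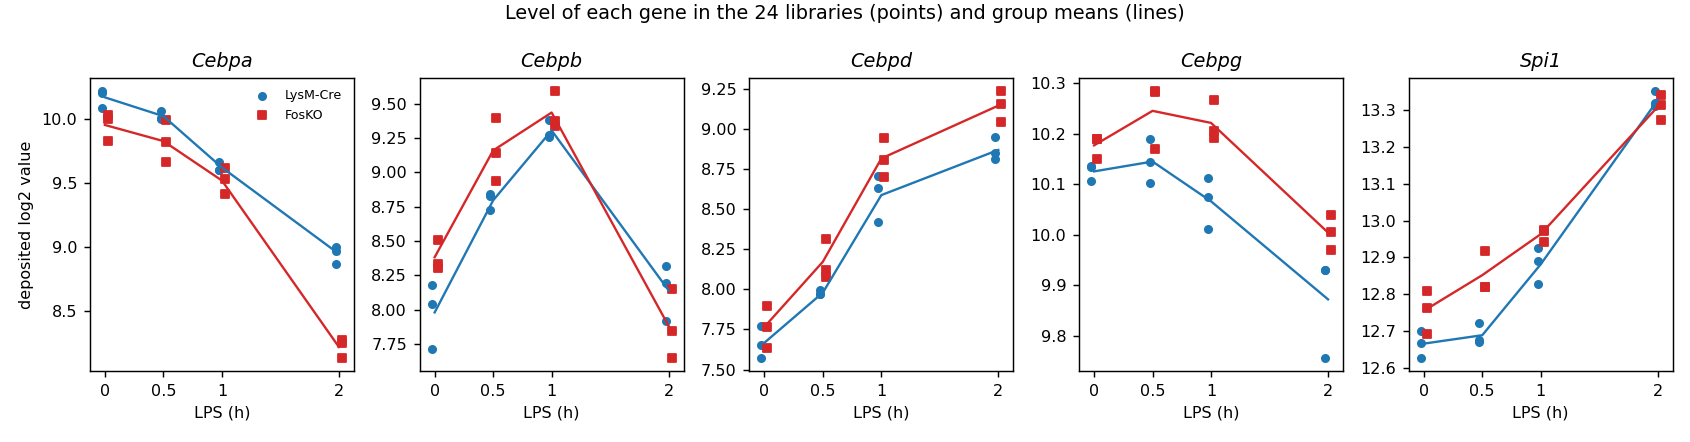
Deposited log2 value of each gene (y axis, scaled separately for each gene) against hours of LPS (x axis), with LysM-Cre libraries as blue circles, libraries labelled FosKO as red squares, and lines through the means of 3 libraries. Cebpa runs from 10.17 to 8.95 in LysM-Cre and from 9.95 to 8.22 in FosKO, and Cebpb peaks at 1 h in both.

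Cebpa, the factor of myeloid differentiation, was 10.20, 10.21 and 10.08 in the 3 untreated LysM-Cre libraries. After 0.5 h it was 10.06, 10.01 and 10.00, after 1 h 9.66, 9.60 and 9.60, and after 2 h 8.97, 8.997 and 8.87. In libraries labelled FosKO untreated values were 10.00, 10.03 and 9.83, followed by 9.82, 9.99 and 9.67 after 0.5 h, 9.53, 9.61 and 9.41 after 1 h and lastly 8.14, 8.27 and 8.25 after 2 h. The libraries at 1 h and at 2 h lay below every untreated library of their genotype. The fall at 1 h was 0.55 (SE 0.07, adjusted p = 1.85e-06) in LysM-Cre and 0.43 (SE 0.07, adjusted p = 4.08e-05) in FosKO, and with the high-18S libraries alone the differences were -0.51 and -0.44. At 2 h Cebpa stood at 0.43 of its untreated level in LysM-Cre (log2 difference -1.22, 95% interval -1.37 to -1.08, adjusted p = 2.59e-12) and at 0.30 in FosKO (-1.73, -1.88 to -1.59, adjusted p = 7.11e-15). At 0.5 h the differences of -0.15 and -0.13 did not pass the test (adjusted p = 0.2749 and 0.3386). Between 1 and 2 h the step was -0.67 in LysM-Cre and -1.30 in FosKO, and 2.04% of tested genes had a larger step in FosKO. The antisense gene Gm45091, which overlaps the start of Cebpa, was between -1.19 and -1.06 in all 8 group means.

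Cebpb, an inducible activator of inflammatory genes, was 8.04, 8.18 and 7.72 in untreated LysM-Cre libraries, and varied more between replicates than the other members (pooled SD 0.18). After 0.5 h it was 8.72, 8.84 and 8.83 and after 1 h 9.26, 9.27 and 9.38, above every untreated library. The values of 8.19, 8.32 and 7.92 after 2 h overlapped the untreated ones. In libraries labelled FosKO it was 8.33, 8.31 and 8.51 untreated, then 8.94, 9.14 and 9.40 after 0.5 h, 9.38, 9.34 and 9.59 after 1 h, and lastly 7.84, 7.65 and 8.15 after 2 h, when all 3 lay below the untreated ones. In LysM-Cre it had risen 1.76-fold at 0.5 h (log2 0.82, SE 0.13, adjusted p = 2.61e-04) and 2.504-fold at 1 h (1.32, SE 0.13, adjusted p = 7.59e-08). The rises in FosKO were 1.71-fold at 0.5 h (0.78, adjusted p = 5.59e-04) and 2.07-fold at 1 h (1.05, adjusted p = 2.21e-06). High-18S libraries alone gave 0.80 and 1.28 in LysM-Cre, and 0.89 and 1.08 in FosKO. At 2 h the difference from 0 h was 0.16 in LysM-Cre (adjusted p = 0.3169), whereas in FosKO Cebpb fell by 0.50 (SE 0.13, adjusted p = 0.0028). The step from 1 to 2 h was -1.16 in LysM-Cre and -1.55 in FosKO. Tmem189, which overlaps part of Cebpb on the opposite strand, was 12.28 in untreated LysM-Cre libraries, differed from that by -0.02 at 1 h and by -0.57 at 2 h, and was 0.08 higher in FosKO than in LysM-Cre at 2 h. The libraries were strand-specific, but whether strand was used in counting is not given in the sources used here.

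Cebpd, the other inducible activator, went on rising to 2 h. Untreated LysM-Cre libraries held 7.77, 7.65 and 7.57, and those after 0.5 h 7.996, 7.97 and 7.97. After 1 h the values were 8.42, 8.63 and 8.71, and after 2 h 8.81, 8.95 and 8.85. In libraries labelled FosKO they were 7.76, 7.64 and 7.89, then 8.08, 8.12 and 8.31, then 8.70, 8.81 and 8.94, and at 2 h 9.16, 9.04 and 9.23. Each time point lay wholly above the one before it in both genotypes. The rise at 2 h was 2.30-fold in LysM-Cre (1.202, SE 0.08, adjusted p = 7.29e-11) and 2.60-fold in FosKO (1.38, SE 0.08, adjusted p = 7.02e-12). At 1 h it was 0.92 and 1.05, and 0.76 and 1.11 with high-18S libraries alone. The early rise at 0.5 h was 0.31 in LysM-Cre (adjusted p = 0.0230) and 0.41 in FosKO (adjusted p = 0.0034). In LysM-Cre this call was lost on leaving out untreated replicate 2 or 3, or any of the 3 replicates at 0.5 h (adjusted p from 0.0601 to 0.116), and in FosKO it was lost when only these groups were fitted (adjusted p = 0.1039). Spidr, which overlaps Cebpd on the opposite strand, was -0.05 from its untreated level at 2 h in LysM-Cre.

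Cebpg, the pairing partner, moved little. It ranged from 9.76 to 10.28 over all 24 libraries, a 1.44-fold span against 4.22-fold for Cebpa. After 2 h it was 9.76, 9.93 and 9.93 in LysM-Cre, against 10.11, 10.14 and 10.13 untreated, and 10.04, 9.97 and 10.00 in FosKO, against 10.15, 10.19 and 10.19. All libraries at 2 h lay below the untreated ones, with a fall of 0.25 (SE 0.04, adjusted p = 2.50e-05) in LysM-Cre and 0.17 (SE 0.04, adjusted p = 0.0013) in FosKO. At 0.5 and 1 h the differences from 0 h lay between -0.06 and 0.07 and did not pass the test, except that under quantile normalisation the 1 h difference in LysM-Cre was -0.14 and passed (adjusted p = 0.0110).

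Spi1, the PU.1 gene, was 12.70, 12.67 and 12.63 in untreated LysM-Cre libraries, 12.67, 12.68 and 12.72 after 0.5 h, 12.83, 12.89 and 12.93 after 1 h and lastly 13.32, 13.35 and 13.31 after 2 h. Libraries labelled FosKO held 12.76, 12.69 and 12.81, then 12.82, 12.82 and 12.92, then 12.94, 12.97 and 12.97, and at 2 h 13.31, 13.27 and 13.34. At 2 h it was higher by 0.66 in LysM-Cre (1.58-fold, SE 0.03, adjusted p = 3.54e-13) and 0.55 in FosKO (1.47-fold, SE 0.03, adjusted p = 5.97e-12), in every library. Under quantile normalisation the 2 h rises were 0.31 and 0.19 and still passed. At 1 h the rise of 0.22 in LysM-Cre (adjusted p = 2.34e-05) and 0.21 in FosKO (adjusted p = 4.07e-05) became 0.003 (adjusted p = 0.955) and 0.05 (adjusted p = 0.197) under quantile normalisation, and with high-18S libraries alone it was 0.16 and 0.22. At 0.5 h the differences were 0.02 and 0.10 and did not pass, although that in FosKO did with a replicate block by genotype (adjusted p = 0.0466) and without untreated FosKO replicate 3 (0.12, adjusted p = 0.0355).

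In LysM-Cre, 2 of the 5 members were called at 0.5 h of LPS, when 7.24% of all tested genes were called, 4 at 1 h (35.8%) and 4 at 2 h (60.8%). In FosKO the counts were 2 (5.92%), 4 (32.6%) and 5 (62.1%). In the steps between times, 4 were called from 0.5 to 1 h (26.8%) and 5 from 1 to 2 h (52.3%) in LysM-Cre, and 3 (27.5%) and 5 (50.7%) in FosKO. In LysM-Cre the early step was lost for Spi1 under quantile normalisation (0.06) and for Cebpb with high-18S libraries alone (0.48, adjusted p = 0.159). The later step there was lost for Cebpg with high-18S libraries alone (-0.14) and for Cebpd without replicate 1 at 1 h (0.20, adjusted p = 0.0624). In FosKO the early step of Cebpa (-0.31) was lost with the groups compared alone (adjusted p = 0.0581). The step of Cebpb from 0.5 to 1 h in FosKO (0.28) was not among them but passed with a replicate block by genotype (adjusted p = 0.0355) and without replicate 3 at 0.5 h (0.40). That of Spi1 (0.11) was lost under quantile normalisation (0.03), with the groups compared alone, with high-18S libraries alone, and without replicate 1 or 2 at 0.5 h or replicate 3 at 1 h. Libraries did not overlap those at 0 h for 3 members after 0.5 h (26.1% of tested genes), 4 after 1 h (49.3%) and 4 after 2 h (67.9%) in LysM-Cre, and for 3 (19.4%), 5 (39.1%) and 5 (63.6%) in FosKO. At 1 and 2 h so many genes changed that the sizes say more than the counts. A larger change than that of Cebpb at 1 h in LysM-Cre was seen in 2.42% of tested genes, and than that of Cebpa at 2 h in 5.54%.

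The next comparison asked how the genotypes differed at each time. At 2 h Cebpa was lower in the libraries labelled FosKO. The 3 FosKO libraries (8.14, 8.27 and 8.25) lay below all 3 LysM-Cre libraries (8.97, 8.997 and 8.87). Cebpa stood at 0.60 of the LysM-Cre level (log2 difference -0.73, SE 0.07, 95% interval -0.87 to -0.58, adjusted p = 4.37e-08), and 4.65% of tested genes differed by more. This call was kept in all 17 alternatives that were run, with values from -0.76 to -0.67. At 0 h and 0.5 h the difference in Cebpa was -0.22 (adjusted p = 0.0193) and -0.19 (adjusted p = 0.0294), without overlap of the libraries, and at 1 h -0.10 (adjusted p = 0.2819). In untreated cells the call did not survive leaving out LysM-Cre replicate 1 (-0.20) or 2 (-0.19) or FosKO replicate 3 (-0.15). The 0.5 h call did not survive leaving out replicate 1 or 2 of LysM-Cre, nor replicate 1 or 3 of FosKO (-0.11 in the last case), nor fits of the groups compared alone (adjusted p = 0.0912) or of high-18S libraries alone (adjusted p = 0.112), and the value was -0.20 in the high-18S and -0.17 in the low-18S libraries.

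Cebpb was higher in libraries labelled FosKO at 0 h by 0.40 (SE 0.13, adjusted p = 0.0235) and at 0.5 h by 0.36 (SE 0.13, adjusted p = 0.0350), and the libraries did not overlap at either time. At 1 h the difference was 0.13 (adjusted p = 0.4946) and at 2 h -0.26 (adjusted p = 0.1265), with overlapping libraries. On leaving out single libraries the 1 h value lay between 0.05 and 0.18. The 2 h difference passed without LysM-Cre replicate 3 (-0.37, adjusted p = 0.0428), without FosKO replicate 3 (-0.39, adjusted p = 0.0261) and with a replicate block by genotype (adjusted p = 0.0337), and on leaving out single libraries it lay between -0.39 and -0.14. Without LysM-Cre replicate 3 the value at 0 h was 0.27 and without FosKO replicate 3 it was 0.34, and neither passed. At 0.5 h the call was lost on leaving out any of the libraries compared except FosKO replicate 1, and without a filter on low values (adjusted p = 0.0582), and the value dropped to 0.24 without FosKO replicate 3. Within the high-18S libraries it was 0.49 and within the low-18S pair 0.11.

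Cebpd and Cebpg were higher in libraries labelled FosKO at 1 and 2 h. Cebpd differed by 0.23 at 1 h (SE 0.08, adjusted p = 0.0399), where the libraries overlapped, and by 0.28 at 2 h (SE 0.08, adjusted p = 0.0103), where they did not. The 1 h value was 0.45 in high-18S and 0.03 in low-18S libraries, and the call did not survive leaving out replicate 1 (0.15) or 2 (0.25) of LysM-Cre, replicate 2 (0.23) or 3 (0.17) of FosKO, nor a fit with the 18S set as a term (adjusted p = 0.0574), of the groups compared alone (adjusted p = 0.0960) or without a filter (adjusted p = 0.0647). The 2 h call was lost without FosKO replicate 3 (0.23, adjusted p = 0.0534). Cebpg differed by 0.16 at 1 h (adjusted p = 0.0069), with 0.19 in high-18S and 0.17 in low-18S libraries, and by 0.13 at 2 h (adjusted p = 0.0147). At 2 h this became 0.07 without LysM-Cre replicate 1 and 0.12 without FosKO replicate 1, and neither passed. Under quantile normalisation Cebpg was not called at 1 h (0.10) or 2 h (0.07), and with the groups compared alone it was not called at 2 h (adjusted p = 0.0542). At 0 and 0.5 h neither gene passed, with differences of 0.10 and 0.19 for Cebpd and 0.05 and 0.10 for Cebpg. Leaving out single libraries moved Cebpd between 0.03 and 0.16 at 0 h and between 0.12 and 0.24 at 0.5 h. At 0.5 h both genes passed with a replicate block by genotype (adjusted p = 0.0295 for Cebpd and 0.0339 for Cebpg) and without FosKO replicate 1 (0.24 and 0.14). Cebpg then also passed with a plain replicate block (adjusted p = 0.0449), with high-18S libraries alone (0.14) and without LysM-Cre replicate 2 (0.12).

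Spi1 was higher in libraries labelled FosKO at 0 h by 0.09 (SE 0.03, adjusted p = 0.0419) and at 0.5 h by 0.16 (SE 0.03, adjusted p = 4.72e-04). At 1 h the difference was 0.08 (adjusted p = 0.0639) and at 2 h -0.02 (95% interval -0.09 to 0.05, adjusted p = 0.7039). Under quantile normalisation Spi1 was called lower in FosKO at 2 h (-0.15, adjusted p = 4.07e-04). The 1 h difference passed with a replicate block (adjusted p = 0.0477, and 0.0338 by genotype) and without LysM-Cre replicate 3 (0.10). The difference at 0 h turned to -0.04 under quantile normalisation, and its call did not survive leaving out replicate 2 or 3 of LysM-Cre, nor replicate 1 or 3 of FosKO (0.06 in the last case). It was also lost without a filter, without a variance trend, with the groups compared alone and with high-18S libraries alone (adjusted p from 0.0509 to 0.128). At 0.5 h quantile normalisation gave 0.05 (adjusted p = 0.257), and the 18S sets gave 0.19 (high) and 0.10 (low).

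By count, 3 members were called between genotypes at 0 h, when 35.4% of tested genes were called. The count was 3 after 0.5 h (40.9%), 2 after 1 h (33.9%) and 3 after 2 h (44.6%). Libraries of the genotypes did not overlap for 3 members at 0 h (44.5% of tested genes), 4 after 0.5 h (50.8%), 2 after 1 h (45%) and 3 after 2 h (54%). The difference in Cebpa at 2 h was the one among these that reached 0.5 on the log2 scale.

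**Figure D2:**
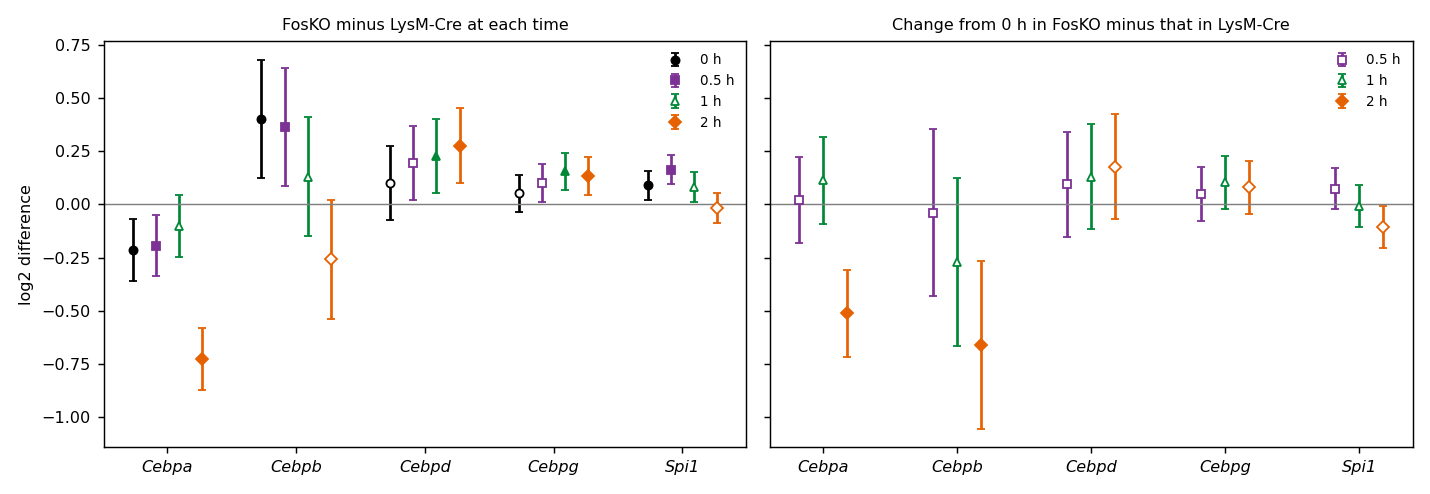
Log2 difference between libraries labelled FosKO and LysM-Cre at each time (left) and the difference between genotypes in the change from 0 h (right), with 95% intervals from limma (3 libraries a group) and filled symbols for adjusted p under 0.05. Cebpa at 2 h lies at -0.73 in the left panel, and Cebpa and Cebpb at 2 h lie at -0.51 and -0.66 in the right panel.

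Whether the LPS response itself differed was tested as the change from 0 h in FosKO minus that in LysM-Cre. No member passed at 0.5 h, when 0.115% of tested genes were called, or at 1 h (1.22%), and 0 of the 5 had an unadjusted p under 0.05 at either time in limma, the tool that was run. At 2 h 2 of the 5 were called, against 15% of all tested genes. Cebpa fell further in FosKO, with a difference of -0.51 (SE 0.10, 95% interval -0.72 to -0.31, adjusted p = 0.0010), and kept this call in all 23 alternatives (-0.57 to -0.40). The response of Cebpb differed by -0.66 (SE 0.19, 95% interval -1.05 to -0.27, adjusted p = 0.0210), since it ended 0.50 below its untreated level in FosKO and 0.16 above it in LysM-Cre. This call was lost without LysM-Cre 0 h replicate 3 (-0.53), LysM-Cre 2 h replicate 2 (-0.57), FosKO 0 h replicate 3 (-0.60) or FosKO 2 h replicate 2 (-0.54), with adjusted p from 0.0510 to 0.0684. For Cebpd the difference was 0.18 (95% interval -0.07 to 0.42), for Cebpg 0.08 (-0.04 to 0.21) and for Spi1 -0.11 (-0.21 to -0.01, adjusted p = 0.1420).

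**Figure D3:**
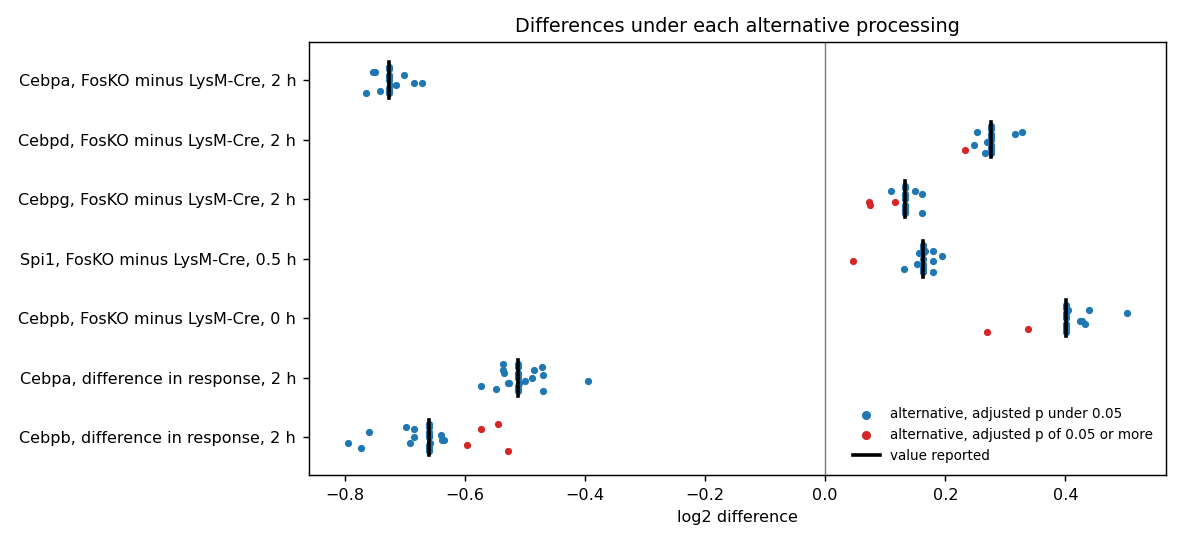
Log2 difference (x axis) of 7 results under each alternative processing, as points coloured by whether adjusted p was under 0.05, with a black bar at the value reported. The points of Cebpa between genotypes at 2 h stay between -0.76 and -0.67. Those of its difference in response at 2 h stay between -0.57 and -0.40, and both results keep the call. Each result of Cebpb, Cebpd, Cebpg and Spi1 shown has alternatives in which the call is lost.

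The balance between the inducible C/EBP genes and Cebpa was read within each library, as the difference of their levels per kilobase, which a scaling factor per library cannot change. Cebpb minus Cebpa was -1.38 (SD 0.17, n = 3) in untreated LysM-Cre libraries and -0.76 (SD 0.22, n = 3) in FosKO, and the libraries did not overlap. It stood above Cebpa at 1 h, by 0.49 (SD 0.09) and 0.73 (SD 0.23), and these libraries overlapped. At 2 h it was level with Cebpa in LysM-Cre (0.005, SD 0.14) and 0.47 (SD 0.26) above it in FosKO. Cebpd minus Cebpa was -3.01 in untreated LysM-Cre and -2.69 in FosKO. After 2 h it was -0.58 in LysM-Cre (-0.66 to -0.53) and 0.42 in FosKO (0.27 to 0.52). All 3 FosKO libraries at 2 h thus held more Cebpd than Cebpa per kilobase, and none of the 3 LysM-Cre libraries did. This order depends on length, since counting Cebpa on its shorter coding transcript (2161 bases) would raise it by 0.29, more than the 0.27 of the lowest FosKO library. Spi1 stood 2.47 above Cebpa in untreated LysM-Cre and 2.77 above it in untreated FosKO, and at 2 h it stood 4.35 and 5.06 above it. These differences reuse the values tested above and were given no test of their own.

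**Figure D4:**
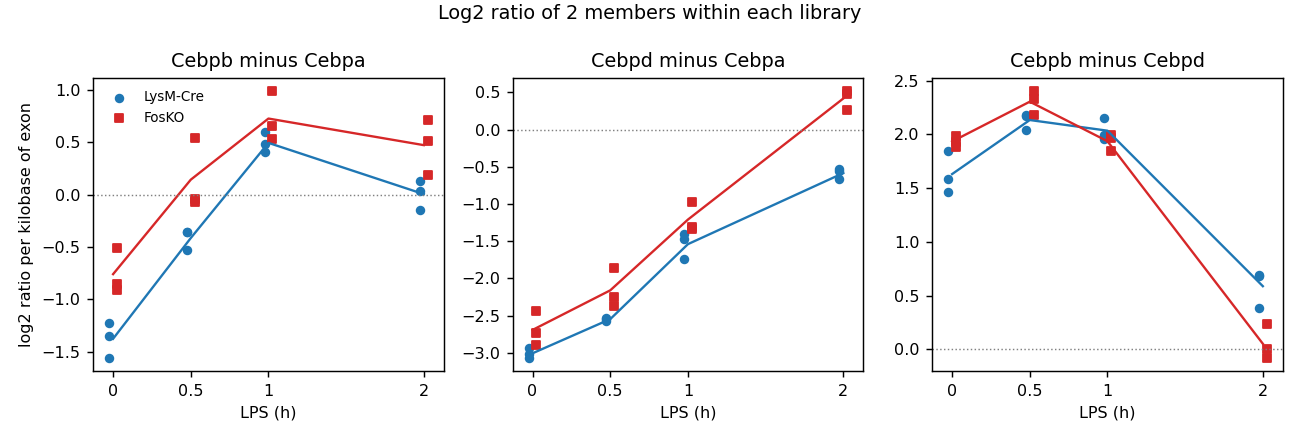
Log2 ratio per kilobase of exon between pairs of genes within each library (y axis) against hours of LPS (x axis), with LysM-Cre as blue circles, FosKO as red squares, lines through the means and a dotted line at equal levels. At 2 h Cebpd minus Cebpa lies between -0.66 and -0.53 in LysM-Cre and between 0.27 and 0.52 in FosKO.

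Over the 8 group means, Cebpd and Spi1 ran together (r = 0.89) and both ran against Cebpa (r = -0.89 and -0.94), while Cebpb and Cebpd were nearly unrelated (r = 0.05). These are descriptions over means that share a time course. Among protein-coding genes, the patterns most like that of Cebpa were those of Txlna, 6430548M08Rik and Fuk (r from 0.996 to 0.997). Those most like Cebpb were Ppp1r10, Caap1 and Plk3 (r from 0.943 to 0.958), a looser match. The closest to Cebpd were Idi1, Kctd12 and Rnf2 (r from 0.994 to 0.997), to Cebpg Sh3bp1, L3mbtl3 and Ehmt2 (r from 0.985 to 0.993), and to Spi1 Ube2k, Dcaf13 and Vasp (r from 0.996 to 0.999).

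Other genes around these factors were read as lists, beside the counts over all 13901 tested genes. Of these, 2708 were higher and 2211 lower in libraries labelled FosKO at 0 h (35.4% called), and 3386 and 2816 at 2 h (44.6%). After 2 h of LPS 4248 rose and 4200 fell in LysM-Cre (60.8%), and 4530 and 4106 in FosKO (62.1%). The difference in response at 2 h was positive for 1010 and negative for 1071 (15%). Quantile normalisation moved these splits. The share higher among called genes went from 54.6% to 43.0% between genotypes at 2 h, from 50.3% to 40.0% after 2 h of LPS in LysM-Cre and from 52.5% to 39.2% in FosKO. Of the called differences in response, 48.5% were positive, against 37.6% with TMM factors.

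Of 9 genes listed as bZIP relatives or dimer partners of C/EBP proteins, 7 were higher and 0 lower in libraries labelled FosKO at 0 h. Their median difference was then 0.50, against 0.0025 over all tested genes. At 2 h 6 of the 9 were higher and 0 lower (median 0.28). At 2 h those with the largest difference were Ddit3 (0.88), which encodes the stress factor CHOP, Batf2 (0.86), Nfil3 (0.78) and Atf3 (0.44). After 2 h of LPS in LysM-Cre, 6 of the 9 rose and 1 fell, with Batf at 1.84, Nfil3 at 1.71, Batf2 at 1.59 and Ddit3 at -0.78. Within libraries labelled FosKO 5 rose and 2 fell, with Nfil3 at 2.20, Batf2 at 1.74, Batf at 1.32 and Ddit3 at -0.89. The difference in response at 2 h (FosKO minus LysM-Cre) was positive for Nfil3 (0.49) and Atf3 (0.23) and negative for Batf (-0.52) and Atf4 (-0.38), and under quantile normalisation 1 was positive and 3 negative.

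Among regulators of C/EBP level, 7 were tested. Trib1 encodes an adaptor that brings C/EBPα to the ubiquitin ligase COP1, encoded by Rfwd2. Trib1 rose by 1.67 at 1 h in LysM-Cre (adjusted p = 6.05e-14), and by 2 h its change from 0 h was -0.28 in LysM-Cre and 0.58 in FosKO, a difference of 0.86 (adjusted p = 4.87e-06). Rfwd2 rose by 0.98 at 2 h in LysM-Cre and 0.99 in FosKO, and Creb1, which encodes a CRE-binding activator, by 0.79 and 0.62. Crem, a CRE-binding repressor or activator by isoform, changed by -0.29 at 2 h in LysM-Cre but 0.32 in FosKO (difference 0.60). Stat3 rose by 0.36 and 0.76 (difference 0.39). Trib3 fell in both, with changes of -0.40 in LysM-Cre and -0.80 in FosKO (difference -0.40). In all, the difference in response (FosKO minus LysM-Cre) was positive for 4 of the 7 and negative for 1, and under quantile normalisation or with TMM factors for 3 and 2.

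PU.1 partners and myeloid fate factors gave 9 tested genes. At 2 h between genotypes 5 were higher and 1 lower in FosKO, with a median of 0.16 that became -0.02 under quantile normalisation, when 4 were higher and 2 lower. Among them were Irf8, a partner of PU.1 at composite sites, at 1.33 (adjusted p = 3.07e-15), and Irf4 at -0.98. Gfi1, a repressor of myeloid genes, rose by 2.38 at 2 h in LysM-Cre and 2.70 in FosKO, and Irf8 by 1.09 and 2.31. The response at 2 h differed for 4 of the 9, with a positive difference (FosKO minus LysM-Cre) in each, and Irf8 stood at 1.22.

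Of 19 PU.1 target genes of macrophages, 8 rose and 3 fell at 2 h in LysM-Cre, and 13 rose and 1 fell in FosKO. The share called in LysM-Cre, 11 of 19, lay near that of all tested genes, and under quantile normalisation the direction turned, with 4 up and 13 down in LysM-Cre and 2 up and 13 down in FosKO. Cd14, the LPS co-receptor, rose by 1.17 and 1.53, and the oxidase subunits Cybb by 0.88 and 0.57 and Ncf1 by 0.86 and 0.94. Cd14 and Ncf1 still rose in both genotypes under quantile normalisation, and so did Cybb in LysM-Cre (0.48) but not in FosKO (-0.07). Between genotypes at 2 h, 14 of the 19 were higher and 0 lower in FosKO, with a median of 0.17, led by Csf3r (0.99), Fcgr1 (0.73) and Mpeg1 (0.45). Under quantile normalisation 3 were higher and 5 lower, with a median of -0.0071, and Csf3r (0.90) and Fcgr1 (0.57) were still called but Mpeg1 (0.15) was not. With TMM factors 13 were higher and 1 lower. The difference of Spi1 itself was -0.02, and -0.15 under quantile normalisation.

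C/EBP target genes of inflammation, 12 tested, had the highest median change of these lists after 2 h of LPS (2.84 in LysM-Cre and 2.68 in FosKO). At 2 h of LPS 11 rose and 0 fell in both genotypes, with Il12b at 5.80 in LysM-Cre and 6.85 in FosKO, Il1b at 4.94 and 5.15 and Il6 at 4.90 and 6.19. At 2 h between genotypes 9 were higher and 2 lower in FosKO (median 1.06), with the cytokines Il6 (1.41) and Il12b (1.39) and the acute phase gene Saa3 (1.46) higher and Il10 lower (-1.70). In untreated cells 8 of the 12 were higher in FosKO and 0 lower, among them Nos2 (1.92), which encodes the inducible nitric oxide synthase, and Saa3 (2.06), C3 (1.86) and Hp (1.74), acute phase and complement genes. The response at 2 h was larger in FosKO for 4 and smaller for 3 (under quantile normalisation 2 and 4), with Ptges at -1.47, Il10 at -1.44 and Il6 at 1.29.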

How the data were processed

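RNA was sequenced from LysM-Cre and FosKO BMDMs. Per the methods and the submitters' processing notes, reads were mapped with STAR 2.5.2a and counted with RSEM 1.2.31 on GRCm38, and DESeq2 was used (1.16.1 in the notes). The methods name RefSeq genes, whereas the deposited table held Ensembl identifiers (99.6% found in GENCODE). The authors deposited normalised log2 values, which resemble a regularised log. If so, differences of genes with few reads are understated.

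The members and lists were chosen with earlier results of these data known. Genes with 2 to the power of the value at or above 5 in at least 3 of 24 libraries were tested (13901). limma 3.58.1 (R 4.3.3) fitted 8 group means to the log2 values (16 residual degrees of freedom), with a variance trend. There were 17 comparisons, and P-values were adjusted by Benjamini-Hochberg within each. Exact permutation of 3 against 3 cannot reach p below 0.1 and was not used. Level per length used the union of exons. All 5 members were named. Of each other list at most 4 called genes per comparison, those with the largest differences, were named (with the changes in both genotypes where a response was compared), and for each member the 3 most similar genes over 8 group means. Alternatives changed the pseudocount (1), filter, normalisation, samples fitted, replicate block, 18S set and variance trend, and left out each library. On simulated data with 200 changed genes, the fit found 82% of changes of size 0.5 and 97% of size 1 between genotypes at 2 h (19 of its 198 calls were false), and 55% and 92% for the difference in LPS response at 2 h (8 of 155). Deviations of same-numbered libraries correlated above 0.1 in every pair for FosKO at 0 with 0.5 h (0.13 to 0.27). They did so too at 0.5 with 1 h (0.33 to 0.71), and in no other comparison. The 0.71 was that of replicate 1, which lay in the low-18S set at both times. For replicates 2 and 3 at 0.5 with 1 h it was 0.38 and 0.33, against up to 0.30 with another number. Pairing and the 18S set cannot be told apart there. The correlations were taken as a hint of pairing, from the data and not the labels. The main fit paired no libraries, and replicate blocks were run as alternatives. Some listed marker genes were not analysed here, and some items are not reported here.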

Additional observations from a re-analysis of the deposited data

Results flagged for a closer look

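The LPS response at 2 h differed between the genotypes for both Cebpa and Cebpb, by the test of the difference itself. For Cebpa the change from 0 h in libraries labelled FosKO minus that in LysM-Cre was -0.51 (adjusted p = 0.0010), and for Cebpb it was -0.66 (adjusted p = 0.0210). The Cebpa call was kept in every alternative, whereas that of Cebpb was lost on leaving out some single libraries (adjusted p from 0.0510 to 0.0684). Between genotypes Cebpb differed by 0.40 at 0 h (adjusted p = 0.0235) and by -0.26 at 2 h (adjusted p = 0.1265). No test of outlying samples was made.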

How the results depend on the processing

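Of 51 member differences that were called, 30 kept their call and direction under every alternative. These include Cebpa at 2 h between genotypes and in its response, all calls at 2 h of LPS, and the rises of Cebpb and Cebpd at 1 h. With high-18S libraries alone, LysM-Cre at 1 h had 1 library, which is assumed to vary like the other groups. A called difference changed sign in 1 case, Spi1 at 0 h between genotypes (-0.0355 under quantile normalisation). Same-numbered libraries of a genotype had deviations correlated above 0.1 in 12 of 36 pairs, and in 30 of 36 a library correlated best with its own number, a hint from the data. With the replicate block by genotype no call was lost and 6 were gained, and the count between genotypes at 0.5 h went from 3 to 5. With the plain replicate block the counts in order of time were 3, 4, 3 and 3. At 1 h the count between genotypes was 1 in place of 2 without a filter and under quantile normalisation. The same held in a fit of the groups compared alone and with the 18S set as a term. A fit of the groups compared alone gave 1 member in place of 2 at 0.5 h of LPS in FosKO and 1 in place of 3 from 0.5 to 1 h in FosKO. On leaving out single libraries the count between genotypes ranged from 0 to 3 in untreated cells, from 1 to 4 after 0.5 h and from 1 to 3 after 1 h. It ranged from 1 to 2 after 0.5 h of LPS in LysM-Cre as well as for the response at 2 h, and from 2 to 4 for the step from 0.5 to 1 h in FosKO. The cause was not tested.

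Differences that passed in neither setting also changed sign. Under quantile normalisation these were Cebpg between genotypes at 0 h (-0.0073), Cebpg (-0.0276) and Spi1 (-0.0585) at 0.5 h of LPS in LysM-Cre, Cebpg at 1 h in FosKO (-0.0388) and the difference in response of Spi1 at 1 h (0.0506). With high-18S libraries alone they were the difference in response of Cebpb at 0.5 h (0.0856) and of Spi1 at 1 h (0.0557). On leaving out single libraries, Spi1 between genotypes at 2 h ranged from -0.0339 to 9.46e-05, Cebpg at 0.5 h of LPS in LysM-Cre from -0.0028 to 0.0410, and the difference in response at 0.5 h ranged from -0.0612 to 0.1007 for Cebpa and from -0.1580 to 0.0931 for Cebpb, and that of Spi1 at 1 h from -0.0389 to 0.0201. The unknown depth of each library limits what can be said of small differences.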
